A study of Homo sapiens with 6 samples.

Results

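SR proteins, heterogeneous nuclear ribonucleoproteins (hnRNPs) and other sequence-reading splicing regulators were compared between a lung adenocarcinoma cell line with acquired resistance to osimertinib and its control. The members were the protein-coding genes whose symbols name SR proteins (SRSF), hnRNPs (HNRNP), RBFOX, MBNL, CELF and PTBP proteins, subunits of the splicing factor 3A and 3B complexes, RNA-binding motif (RBM) proteins, and QKI. They numbered 95 of the 16378 protein-coding genes in the files, which list 30330 genes in all. By family there were 12 SR proteins, 23 hnRNPs, 9 SF3A and SF3B subunits, 14 RBFOX, MBNL, CELF, PTBP and QKI genes (called tissue-type regulators here), and 37 RBM genes.

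The resistant group held 3 RNA-seq libraries from H1975/OSI cells, which had been selected from H1975 at stepwise osimertinib doses of 0.03, 0.1, 0.3, 1 and 3 µM over 7 months. The control group held 3 libraries from NCI-H1975. Osimertinib inhibits mutant forms of the epidermal growth factor receptor, and the stated aim was to find candidate targets linked to resistance. The resistant libraries bear the title Drug, and the labels do not state whether osimertinib was present when RNA was taken. Each group is a single cell line, and the labels do not describe the replicates as separate cultures. All p-values therefore refer to the variation among these 6 libraries, part or all of which could be technical.

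SR proteins carry RNA recognition motifs and a domain of repeated arginine and serine residues, and they generally promote use of exons to whose enhancer sequences they bind. Many hnRNPs bind silencer elements and counter that use, so the balance of both families sets the choice of many alternative exons. SF3A and SF3B form part of the U2 small nuclear ribonucleoprotein (snRNP), which recognises the branch point of the intron. RBFOX, MBNL, CELF, PTBP and QKI proteins bind short motifs near exons and are known for exon choices that differ between muscle, brain and other tissues. Genes of the SR and hnRNP families commonly control their own level through exons that send the transcript to nonsense-mediated decay. The values below are summed over each gene, so they show no splicing outcome and do not separate productive from decaying transcripts.

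Resistant libraries had 15174126 to 16276518 reads each, and control libraries 15813497 to 16588479. Resistant library 1 differed from its group, with a chi-square per gene of 10.8 and 12.1 against the other resistant libraries, while resistant libraries 2 and 3 gave 2.32 and the control pairs 2.43 to 3.67. Mitochondrially encoded transcripts took 5.33 to 5.66% of reads in resistant and 6.46 to 7.34% in control libraries. Of 8 adenocarcinoma markers, all had a row, and their summed normalized count ranged from 40557 to 47355 in resistant and from 58623 to 61898 in control libraries. NKX2-1, the lung lineage factor, had 439, 463 and 481 normalized counts in resistant and 303, 303 and 254 in control libraries, and SFTPB was under 10 in every library. EPCAM, an epithelial surface protein, had 17.3, 15.7 and 19.7 in resistant and 391, 353 and 391 in control libraries. The keratin KRT7 averaged 12803 ± 1139 in resistant and 13355 ± 528 in control libraries (SD, n = 3 each). KRT8, KRT18 and KRT19 averaged 16385, 7556 and 5874 in resistant and 23304, 10013 and 12960 in control libraries. Of 4 leukocyte markers, CD68 alone had a row and was under 10 throughout. Of 6 fibroblast markers, 4 had a row, with sums of 4807 to 5378 in resistant and 4428 to 5325 in control libraries, nearly all from COL1A1, while LUM and THY1 stayed under 10. All 4 endothelial markers had a row, with sums of 557 to 759 in resistant and 289.6 to 332 in control libraries, but the expressed markers went opposite ways. CDH5 had 464, 605 and 669.8 in resistant and 127, 123 and 129 in control libraries, PECAM1 had 88.7, 82.1 and 78.9 in resistant and 157, 187 and 199 in control libraries, and VWF and KDR stayed under 10. In bulk RNA, fewer cells of a type and less RNA per cell cannot be told apart, and the part of these differences in the results below was not tested.

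Splicing regulator transcripts were more often lower than higher in the resistant line. Of 90 members that could be tested, 49 were lower in resistant cells and 11 higher at an adjusted p under 0.05, and 30 were not called. Over all 24560 genes tested the same rule called 41.5% (21.1% lower and 20.4% higher), and over the 10654 protein-coding genes with a mean of at least 100 normalized counts it called 35.6% lower and 27.9% higher. The median log2 fold change was -0.33 over the members, against 0.01 over all genes tested and -0.05 over those well-expressed protein-coding genes. Fold changes are resistant minus control on the log2(normalized count + 1) scale, fitted with limma and adjusted over all genes tested. Relative to the control mean, the median member stood at -0.30, -0.34 and -0.32 on the log2 scale in the 3 resistant libraries, so resistant library 1 gave nearly the same value as the others.

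Members took 1.17, 1.21 and 1.23% of all reads in the resistant libraries, against 1.47, 1.46 and 1.52% in the control libraries, with no overlap. The groups did not overlap for 53 members that were lower and 14 that were higher, whereas of all genes tested 50.1% had no overlap (25.4% lower and 24.7% higher). Of the 10654 well-expressed protein-coding genes, 4153 were lower and 3361 higher without overlap. Changes of 2-fold or more were seen in 5 of the 90 tested members downwards and 2 upwards. The same held for 2008 lower and 2714 higher of all 24560 genes tested. Among the 10654 well-expressed protein-coding genes it held for 452 lower and 467 higher. Of the 81 members with a control mean of 50 or more, 3 were lower by that much and 0 higher. That limit uses the control group alone, so it drops members that rise from a low control level. CELF5 and RBM44, the 2 that were higher, had control means of 23.8 and 19.2 and were dropped by it. SRSF12 and MBNL3, which were lower, had control means of 16.6 and 15.1 and were dropped too. The 5 members left out of the test, RBM11, RBM20, HNRNPUL2-BSCL2, CELF3 and CELF4, had at most 2 reads in any library. A count of 0 reads allows up to 3 reads, or 2.77 to 3.12 normalized counts in these libraries, counting error only. Of the 90 tested members, 89 reached the minimum of 1 in all 6 libraries, the other being CELF2.

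Scaling matters for the split of calls. As deposited, the median log2 value of all genes tested was 0.13 higher in resistant than in control libraries. Centring each library on that median shifted the median log2 fold change of all genes tested to -0.12 and that of the members to -0.46, and calls then became 59 lower and 8 higher for members and 27.1% lower and 15.1% higher for all genes tested. SRSF4, SF3B1 and PTBP2 were no longer called higher under that scaling.

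**Figure D1:**
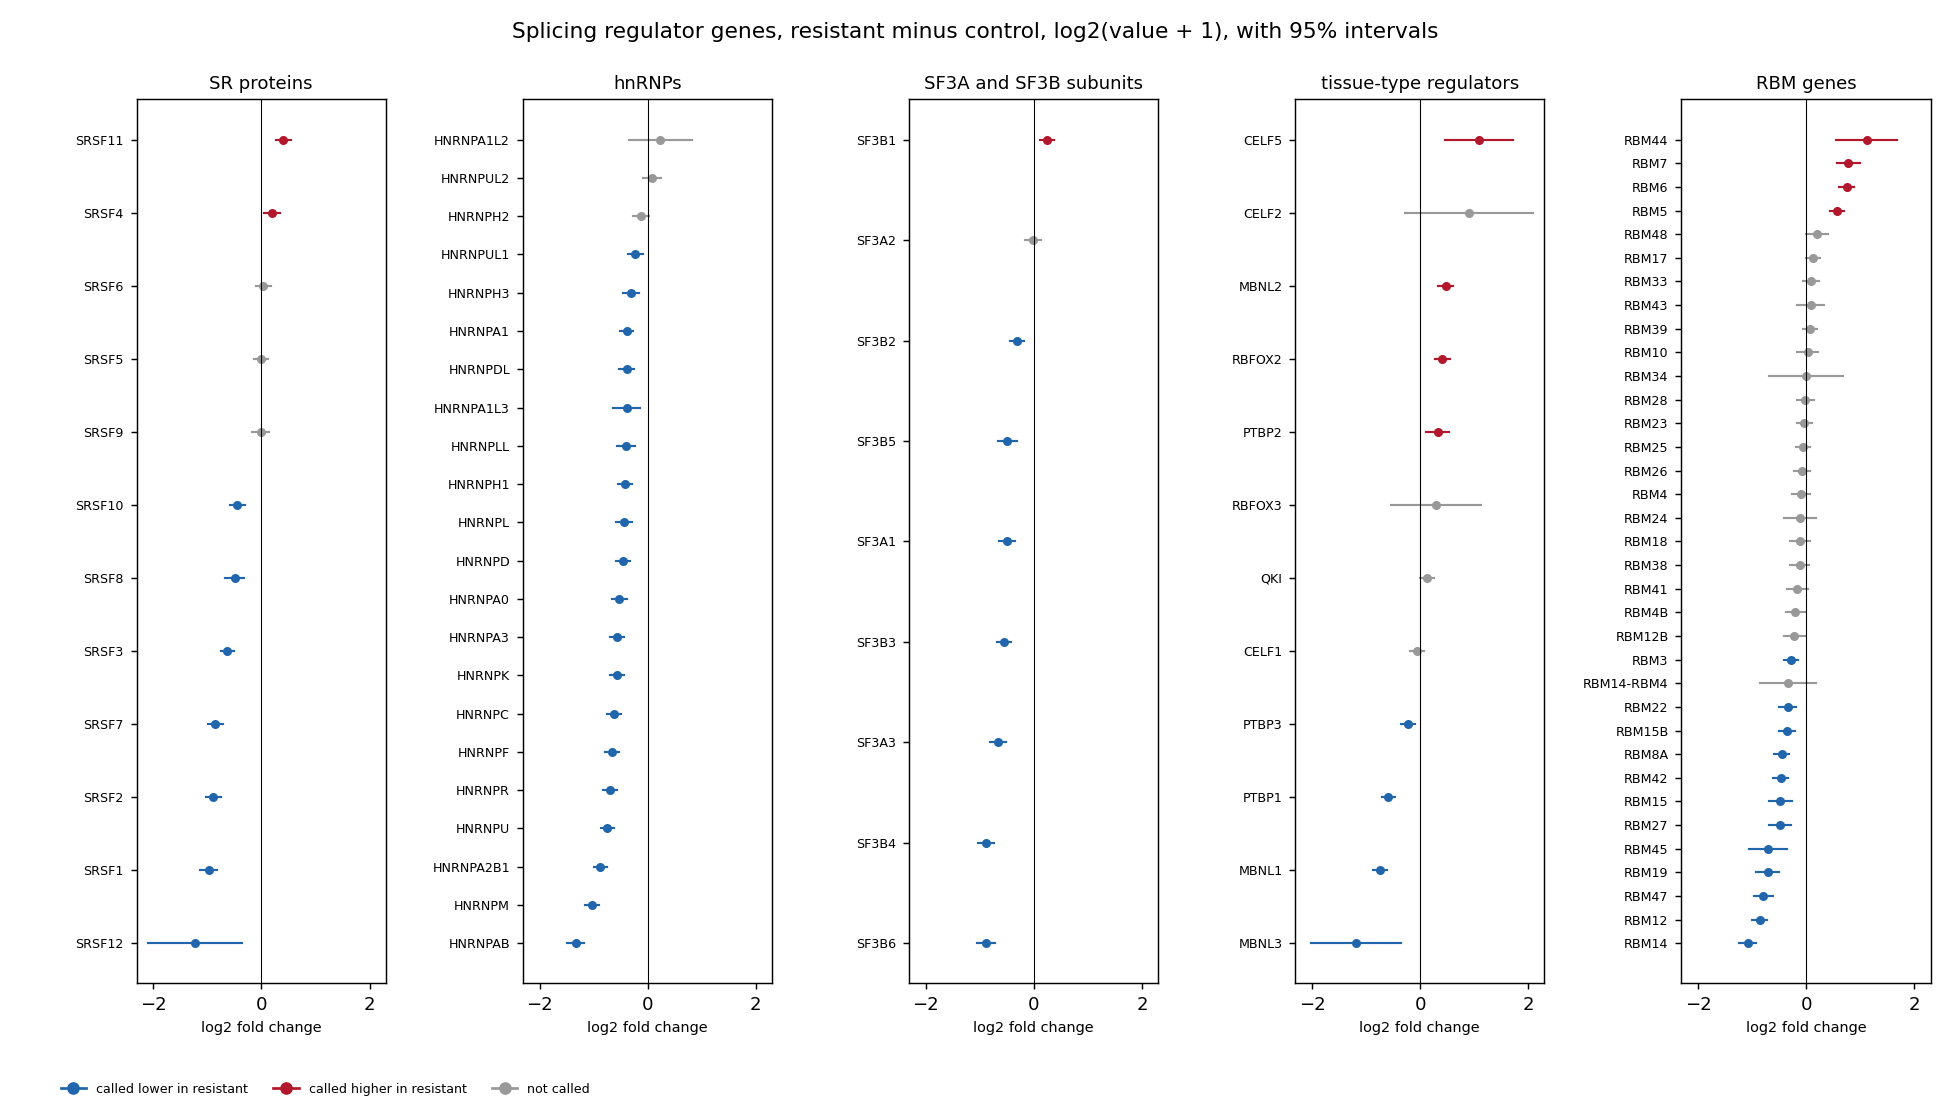
Log2 fold change (resistant minus control, horizontal axis) of each of the 90 tested members in 5 family panels, with 95% intervals. Blue marks the 49 members called lower, red the 11 called higher and grey the 30 not called; the hnRNP panel holds no red point, and the tissue-type panel holds 4 red and 4 blue points.

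Of the 5 families, the hnRNPs had the most one-sided calls. Of 22 tested, 19 were lower in resistant cells, none was called higher and 3 were not called, with a median log2 fold change of -0.45. The share called lower was 86.4%, beside 35.6% lower and 27.9% higher among well-expressed protein-coding genes. At an unadjusted p under 0.05 limma also placed 0 of the hnRNPs higher, and edgeR and DESeq2 each called 0 higher. The hnRNP share of all reads was 0.500, 0.517 and 0.525% in resistant libraries and 0.727, 0.733 and 0.755% in control libraries. The calls covered the abundant core particle proteins as well as the less abundant members, and ran from -1.33 to -0.23 on the log2 scale.

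HNRNPAB (chr5:178204507-178211163, GRCh38), an RNA-binding protein linked to mRNA transport, had normalized counts of 1441, 1803 and 1752 in the resistant libraries, against 4310.4, 4255 and 3984 in the control libraries. Every resistant library lay under every control library, and the means were 1666 ± 196 in resistant and 4183 ± 175 in control libraries (SD, n = 3 each), 39.8% of control (log2 fold change -1.33, SE 0.08, adjusted p = 1.03e-12). HNRNPM (chr19:8444767-8489114), which binds G and U rich intronic elements, had 3298, 3783 and 3638 in the resistant libraries, against 7576, 7332 and 6932 in the control libraries (log2 fold change -1.03, SE 0.07, adjusted p = 6.32e-12). HNRNPA2B1 (chr7:26173057-26201529), a core particle protein that also acts in RNA sorting, had 9193, 9603 and 9728 in the resistant libraries, against 17086, 17465 and 17865 in the control libraries (log2 fold change -0.88, SE 0.06, adjusted p = 1.11e-11). These 3 genes were separated by wide gaps between the groups, and none of the calls was lost under any other setting tried. HNRNPU (chr1:244840638-244864560), a nuclear scaffold protein also known as SAF-A, had 7084, 7278 and 7386 in the resistant libraries, against 12167, 12316 and 12044 in the control libraries (log2 fold change -0.75, SE 0.06, adjusted p = 1.69e-10).

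HNRNPA1, a well studied binder of exonic silencers, averaged 11397 ± 449.8 in resistant and 14919 ± 147 in control libraries (SD, n = 3 each) (log2 fold change -0.39, SE 0.06, adjusted p = 5.85e-06). HNRNPK, which binds C-rich RNA and DNA through KH domains, averaged 8392 ± 452 in resistant and 12407 ± 266 in control libraries (log2 fold change -0.57, SE 0.06, adjusted p = 3.8e-08). In both the groups were apart in every library. HNRNPC, which coats uridine tracts and keeps cryptic exons silent, stood at -0.62. HNRNPF and HNRNPH1, which bind runs of G, stood at -0.65 and -0.42, while their close relative HNRNPH2 was not called (-0.13, adjusted p = 0.174). Under median centring HNRNPH2 was called lower (-0.26, adjusted p = 0.007). HNRNPL and HNRNPLL, readers of CA repeats, stood at -0.43 and -0.40. HNRNPD, which binds AU-rich elements, and its relative HNRNPDL stood at -0.46 and -0.39. HNRNPR, HNRNPA3, HNRNPA0 and HNRNPH3 were lower as well, at -0.70, -0.56, -0.52 and -0.31.

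The hnRNPs not called were HNRNPH2, HNRNPUL2 (0.08, adjusted p = 0.442) and HNRNPA1L2. HNRNPA1L2, an intronless copy of HNRNPA1, spread widely, at 24.5, 48 and 64.1 in the resistant libraries, against 37, 32.2 and 38.6 in the control libraries, and its groups overlapped (adjusted p = 0.55). Without resistant library 1 it was called higher at 0.62 (adjusted p = 0.0401), and without resistant library 3 its sign turned to -0.059. HNRNPUL1 (-0.23, adjusted p = 0.0067) lost its call without control library 2 (-0.18, adjusted p = 0.0718). HNRNPA1L3 (-0.39, adjusted p = 0.0135), another HNRNPA1-like gene, lost it without control library 2 (-0.36, adjusted p = 0.0599) or control library 3 (-0.35, adjusted p = 0.0589). Reads of HNRNPA1, its copies and its 22 annotated pseudogenes in the files could be shared by the counting; those pseudogenes together held at most 3.17% of the HNRNPA1 value in any library.

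Because 19 hnRNPs were lower together, upstream sequences of leading hnRNPs are shown beside those of SRSF1, which was also lower, and of RBM6 and RBM7, which were higher. RefSeq promoter entries (GRCh38.p14) were matched for 85 of the 95 members. The sequences give the 250 bases before the start position of each RefSeq entry, 5′ to 3′ on the gene's strand. That start is not the outer end of the gene in the deposited files, so the windows of HNRNPA2B1 and RBM7 lie inside the gene spans given in the text and the other 4 partly so. Capitals mark every match, on either strand, to CACGTG (an E-box), CGGAAG (an ETS-type core), CCAAT or GGGCGG (a GC box).
HNRNPAB, chr5:178204283-178204532, plus strand: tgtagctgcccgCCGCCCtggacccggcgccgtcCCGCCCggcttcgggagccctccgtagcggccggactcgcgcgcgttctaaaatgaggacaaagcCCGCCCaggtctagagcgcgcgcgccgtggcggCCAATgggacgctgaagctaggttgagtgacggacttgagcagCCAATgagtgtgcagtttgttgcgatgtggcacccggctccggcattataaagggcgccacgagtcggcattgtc
HNRNPM, chr19:8444725-8444974, plus strand: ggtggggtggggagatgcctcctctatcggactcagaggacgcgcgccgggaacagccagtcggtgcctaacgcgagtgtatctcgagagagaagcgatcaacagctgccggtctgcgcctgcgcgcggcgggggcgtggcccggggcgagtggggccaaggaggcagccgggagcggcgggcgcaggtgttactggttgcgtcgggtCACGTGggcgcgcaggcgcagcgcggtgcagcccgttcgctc
HNRNPA2B1, chr7:26200747-26200996, minus strand: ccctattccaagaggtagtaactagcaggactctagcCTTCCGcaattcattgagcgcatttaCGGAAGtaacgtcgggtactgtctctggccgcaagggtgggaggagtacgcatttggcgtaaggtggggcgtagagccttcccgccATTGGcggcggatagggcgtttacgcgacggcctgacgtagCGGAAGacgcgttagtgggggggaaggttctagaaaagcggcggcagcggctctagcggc
SRSF1, chr17:58007247-58007496, minus strand: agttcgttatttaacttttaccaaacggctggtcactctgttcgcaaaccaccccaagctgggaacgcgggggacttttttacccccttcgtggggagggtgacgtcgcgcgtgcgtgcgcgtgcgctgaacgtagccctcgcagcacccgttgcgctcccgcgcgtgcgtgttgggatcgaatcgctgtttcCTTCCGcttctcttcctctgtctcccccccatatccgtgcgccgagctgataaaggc
RBM6, chr3:49939900-49940149, plus strand: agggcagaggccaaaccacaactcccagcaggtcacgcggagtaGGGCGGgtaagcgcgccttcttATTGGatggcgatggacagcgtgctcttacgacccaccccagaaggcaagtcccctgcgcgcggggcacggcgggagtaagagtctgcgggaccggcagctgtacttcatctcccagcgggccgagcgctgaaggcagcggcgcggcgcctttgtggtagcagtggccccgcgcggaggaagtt
RBM7, chr11:114400416-114400665, plus strand: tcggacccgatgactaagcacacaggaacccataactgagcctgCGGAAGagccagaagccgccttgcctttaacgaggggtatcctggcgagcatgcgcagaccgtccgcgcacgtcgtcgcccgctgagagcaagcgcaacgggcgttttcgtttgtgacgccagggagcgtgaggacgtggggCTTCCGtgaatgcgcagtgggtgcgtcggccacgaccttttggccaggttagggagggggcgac

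The 4 members that were lower (HNRNPAB, HNRNPM, HNRNPA2B1 and SRSF1) shared no single motif in these windows. HNRNPAB held 3 GC boxes and 2 CCAAT boxes, HNRNPM a single E-box, HNRNPA2B1 3 ETS-type cores with 1 CCAAT box, and SRSF1 1 ETS-type core. RBM6 and RBM7, which were higher, held matches of the same kinds. Among the 67 promoters of the members called lower, the ETS-type core was present in 35.8%, against 16.5% of all 35116 promoters; it was present in 38.5% of the 13 promoters of members called higher. The GC box stood in 61.2% of promoters of lower members, 38.5% of those of higher members and 42.6% of all promoters. CCAAT stood in 46.3, 30.8 and 32.0% of these promoters and the E-box in 14.9, 15.4 and 6.34%, in the same order. In the 32 hnRNP promoters the shares were 71.9% for the GC box, 59.4% for CCAAT, 34.4% for the ETS-type core and 21.9% for the E-box. Over all 135 member promoters they were 54.1, 37.8, 31.1 and 10.4% in that order. The set of all promoters was not limited to well-expressed protein-coding genes, as most members are, so these shares are not a matched comparison. Several genes have more than 1 promoter entry (67 entries for 45 genes called lower), matches that overlap were each counted, and a match is a description of letters only.

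**Figure D2:**
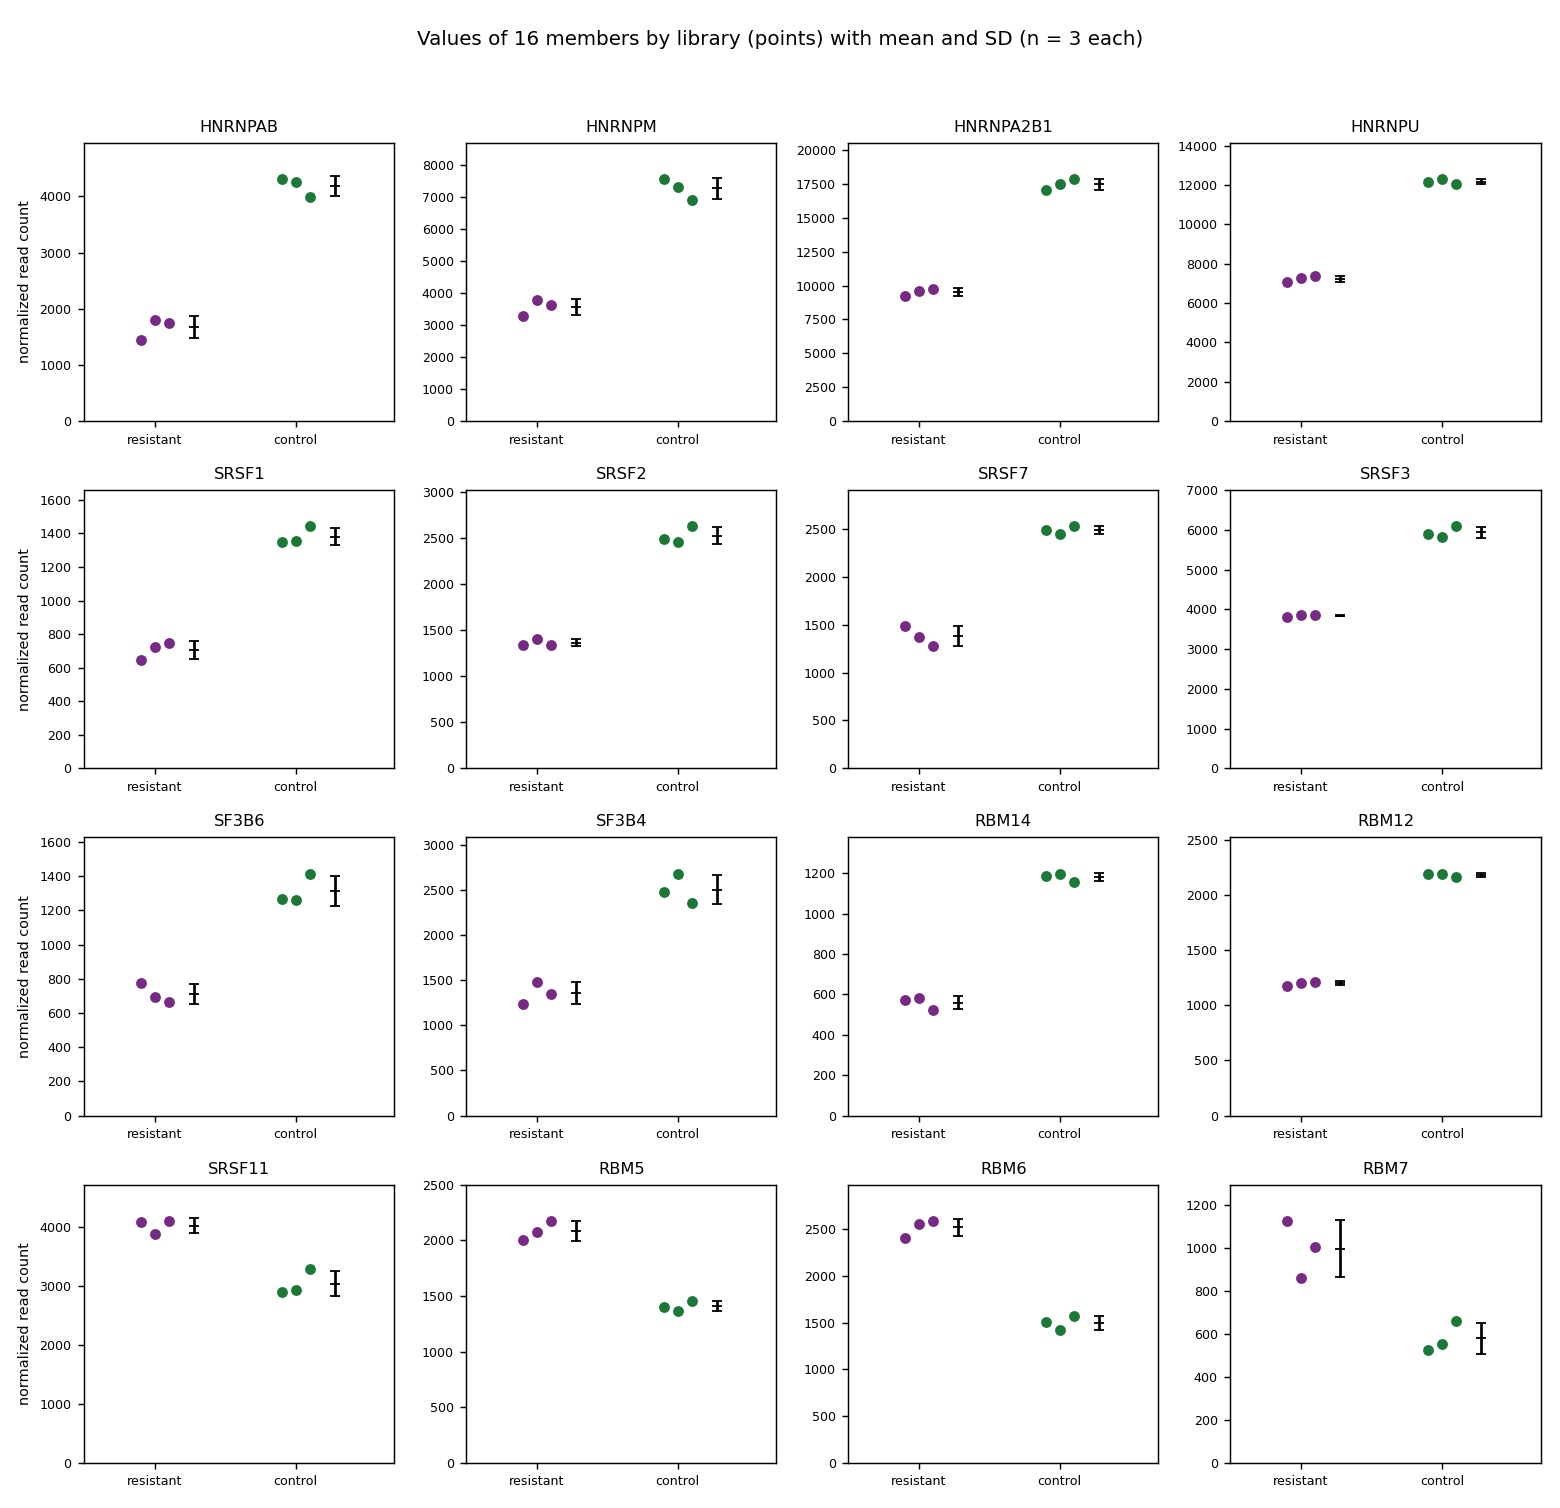
Normalized read counts (vertical axes, each from 0) of 16 members in the 3 resistant (left) and 3 control libraries (right), with mean and SD beside the points. In the 12 panels from HNRNPAB to RBM12 every resistant point lies under every control point, and in the panels of SRSF11, RBM5, RBM6 and RBM7 every resistant point lies above.

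The SR proteins comprised strongly lower members, members that were not called and a pair called higher. Of 12 tested, 7 were lower, 2 higher and 3 not called, with a median log2 fold change of -0.47. The shares were 58.3% lower and 16.7% higher, beside 35.6 and 27.9% of well-expressed protein-coding genes. In the 3 resistant libraries the family median stood at -0.37, -0.52 and -0.53 relative to the control mean. SRSF1 (chr17:58003360-58007346), the prototype SR protein and a known oncoprotein, had 645, 722 and 746 in the resistant libraries, against 1346, 1356 and 1443 in the control libraries. The mean level in resistant cells was 51.0% of control (log2 fold change -0.97, SE 0.08, adjusted p = 2.2e-10). SRSF2 (chr17:76734115-76737374), which activates exons and marks nuclear speckles as SC35, had 1340.0, 1406 and 1343 in the resistant libraries, against 2495, 2454 and 2628 in the control libraries (log2 fold change -0.89, SE 0.06, adjusted p = 7.46e-11). SRSF7 (chr2:38743599-38751494), which adds a zinc knuckle to the SR layout, had 1492, 1368 and 1281 in the resistant libraries, against 2491, 2452 and 2529.9 in the control libraries (log2 fold change -0.85, SE 0.07, adjusted p = 3.88e-10). SRSF3 (chr6:36594353-36605600), a small SR protein that also couples to mRNA export, had 3817, 3847 and 3853 in the resistant libraries, against 5901, 5820.3 and 6089 in the control libraries (log2 fold change -0.63, SE 0.06, adjusted p = 5.57e-09). All 4 were separated from control in every library.

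SRSF10, which represses splicing when dephosphorylated, stood at -0.45 (adjusted p = 7.86e-06), and SRSF8, an SRSF2-like copy, at -0.50 (adjusted p = 2.9e-05). SRSF12 was barely expressed, with 8.16, 5.54 and 4.93 in the resistant libraries, against 11.3, 24.9 and 13.5 in the control libraries; its call (-1.23, adjusted p = 0.0207) was lost without control library 2 (-0.91, adjusted p = 0.15), without resistant library 2 (-1.18, adjusted p = 0.0516) or without resistant library 3 (-1.11, adjusted p = 0.0592). Going the other way, SRSF11, an SR protein that also binds U2AF, had 4092, 3883 and 4107 in the resistant libraries, against 2905, 2930.4 and 3285 in the control libraries (log2 fold change 0.41, SE 0.07, adjusted p = 1.65e-05). SRSF4 (0.20, adjusted p = 0.0264) was called higher only narrowly, and the call ended without control library 1 (0.19, adjusted p = 0.0891), control library 2 (0.17, adjusted p = 0.134) or resistant library 3 (0.20, adjusted p = 0.0507). SRSF5, with the highest mean normalized count of the family, averaged 4989 ± 182 in resistant and 5028 ± 268 in control libraries (SD, n = 3 each; 95% interval of the log2 difference -0.14 to 0.12). SRSF6 (interval -0.10 to 0.17) and SRSF9 (interval -0.18 to 0.14) were not called either, and in all 3 the groups overlapped.

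Among SF3A and SF3B subunits, 7 of 9 were lower, 1 was higher and 1 was not called, with a median of -0.50. The shares were 77.8% lower and 11.1% higher, beside 35.6 and 27.9% of well-expressed protein-coding genes. SF3B6 (chr2:24067584-24076443), the small subunit that touches the branch point adenosine, had 775, 690.4 and 661 in the resistant libraries, against 1264, 1262 and 1415 in the control libraries (log2 fold change -0.89, SE 0.08, adjusted p = 2.03e-09). SF3B4 (chr1:149923317-149928344), which binds RNA upstream of the branch point, had 1241, 1485 and 1345 in the resistant libraries, against 2479, 2685 and 2359 in the control libraries (log2 fold change -0.89, SE 0.07, adjusted p = 7.35e-10). The mean resistant level was 54.0% of control for SF3B6 and 54.1% for SF3B4. SF3A3, a subunit of the SF3A trimer, had 933, 999.6 and 1019 in the resistant libraries, against 1577, 1461 and 1642 in the control libraries (log2 fold change -0.66, SE 0.07, adjusted p = 5.21e-08). SF3B3, a WD40-like scaffold, had 3033, 3326 and 3384 in the resistant libraries, against 4871, 4823 and 4564 in the control libraries (log2 fold change -0.55, SE 0.06, adjusted p = 1.6e-07). The groups were apart in each of these 4. SF3A1, SF3B5 and SF3B2 stood at -0.50, -0.49 and -0.32.

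SF3B1 (chr2:197389784-197435091), the large scaffold that is recurrently mutated in cancers, ran the other way, with 7039.8, 6319 and 6648 in the resistant libraries, against 5669, 5462 and 5709 in the control libraries (log2 fold change 0.25, SE 0.06, adjusted p = 0.002). Under median centring its difference was 0.11 (adjusted p = 0.139). SF3A2 was not called, averaging 1377 ± 84 in resistant and 1389 ± 87.7 in control libraries (interval -0.16 to 0.14). Per kb of gene length, the ratio of SF3B6 to SF3B1 was 0.843, 0.836 and 0.761 in resistant libraries and 1.71, 1.77 and 1.90 in control libraries. SF3B6 was thus below SF3B1 per length in every resistant library and above it in every control library. That order depends on the gene lengths used, and by normalized count SF3B6 was below SF3B1 in every library.

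The tissue-type regulators were mixed, with 4 of 12 tested members higher, 4 lower and 4 not called, and a median of 0.21. These shares of 33.3% in each direction stand beside 35.6% lower and 27.9% higher among well-expressed protein-coding genes. Relative to the control mean, the family median was -0.02 in resistant library 1 and 0.22 and 0.23 in resistant libraries 2 and 3. MBNL1 (chr3:152243828-152465780), a muscleblind protein that drives adult muscle splicing, had 2314, 2227 and 2473 in the resistant libraries, against 3864, 3753 and 4099.8 in the control libraries (log2 fold change -0.74, SE 0.06, adjusted p = 1.72e-09). Its paralogue MBNL2 (chr13:97221434-97394120) had 1698, 1516 and 1703 in the resistant libraries, against 1184, 1154 and 1195 in the control libraries (log2 fold change 0.47, SE 0.07, adjusted p = 5.31e-06). Per kb of gene length, the MBNL1 to MBNL2 ratio was 0.670, 0.722 and 0.714 in resistant libraries and 1.60, 1.60 and 1.69 in control libraries. That reversed order depends on the gene lengths used, 9989 bases for MBNL1 and 4908 for MBNL2. By normalized count MBNL1 was above MBNL2 in every library of both groups. MBNL3 was near the floor, at 8.16, 4.61 and 5.92 in the resistant libraries, against 13.3, 15.6 and 16.4 in the control libraries, and its lower call (-1.18, adjusted p = 0.0211) was lost without control library 2 (-1.16, adjusted p = 0.0615), control library 3 (-1.12, adjusted p = 0.0665) or resistant library 2 (-1.01, adjusted p = 0.0719), and under DESeq2 on the recovered reads (-1.29, adjusted p = 0.0761).

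PTBP1 (chr19:797075-812327) is the polypyrimidine tract binder that silences neuronal exons. It is known to repress PTBP2 through skipping of an exon, which sends the PTBP2 transcript to decay. PTBP1 had 6299, 6171 and 6022 in the resistant libraries, against 9398, 9548 and 8803 in the control libraries (log2 fold change -0.58, SE 0.06, adjusted p = 2.05e-08). PTBP2 (chr1:96721665-96823738), the neuronal paralogue, had 369, 396 and 436 in the resistant libraries, against 296, 312 and 349 in the control libraries (log2 fold change 0.33, SE 0.10, adjusted p = 0.0111). That higher call ended without control library 1 (0.28, adjusted p = 0.0696) or resistant library 3 (0.27, adjusted p = 0.0691). Per kb of gene length, PTBP1 exceeded PTBP2 by a ratio of 29.1 ± 3.06 in resistant and 54.9 ± 6.57 in control libraries (SD, n = 3 each), so PTBP1 remained far the more abundant in both lines. PTBP3, a broadly expressed paralogue, stood at -0.22 (adjusted p = 0.00651) and was not called under quantile normalization (-0.11, adjusted p = 0.156).

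RBFOX2 (chr22:35738736-36028425), the RBFOX protein of epithelial and mesenchymal cells, had 4984, 4244 and 4205 in the resistant libraries, against 3377, 3281 and 3431 in the control libraries (log2 fold change 0.41, SE 0.07, adjusted p = 2.94e-05). RBFOX3, otherwise a neuronal nuclear marker, was between 8.21 and 18.5 normalized counts in all libraries and was not called. CELF5, a family member known from brain, had 85.7, 50.8 and 30.6 in the resistant libraries, against 18.5, 26 and 27 in the control libraries (log2 fold change 1.09, SE 0.30, adjusted p = 0.00574). The spread was widest among resistant libraries, and without resistant library 1 the difference was 0.72 (adjusted p = 0.0514). CELF1, which binds GU-rich RNA, averaged 2357 ± 108 in resistant and 2458 ± 53.2 in control libraries (interval -0.19 to 0.07). CELF2 stayed under 10 normalized counts in every library (adjusted p = 0.228). QKI, a STAR-family protein that promotes circular RNA formation, had 2343, 2363 and 2476 in the resistant libraries, against 2154, 2178 and 2203 in the control libraries; its groups did not overlap, and the difference of 0.14 missed the threshold (adjusted p = 0.089). Without resistant library 1 QKI was called higher at 0.15 (adjusted p = 0.0261), as it was under quantile normalization at 0.22 (adjusted p = 0.00669). Across all settings tried its difference ran from 0.0013 to 0.22.

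**Figure D3:**
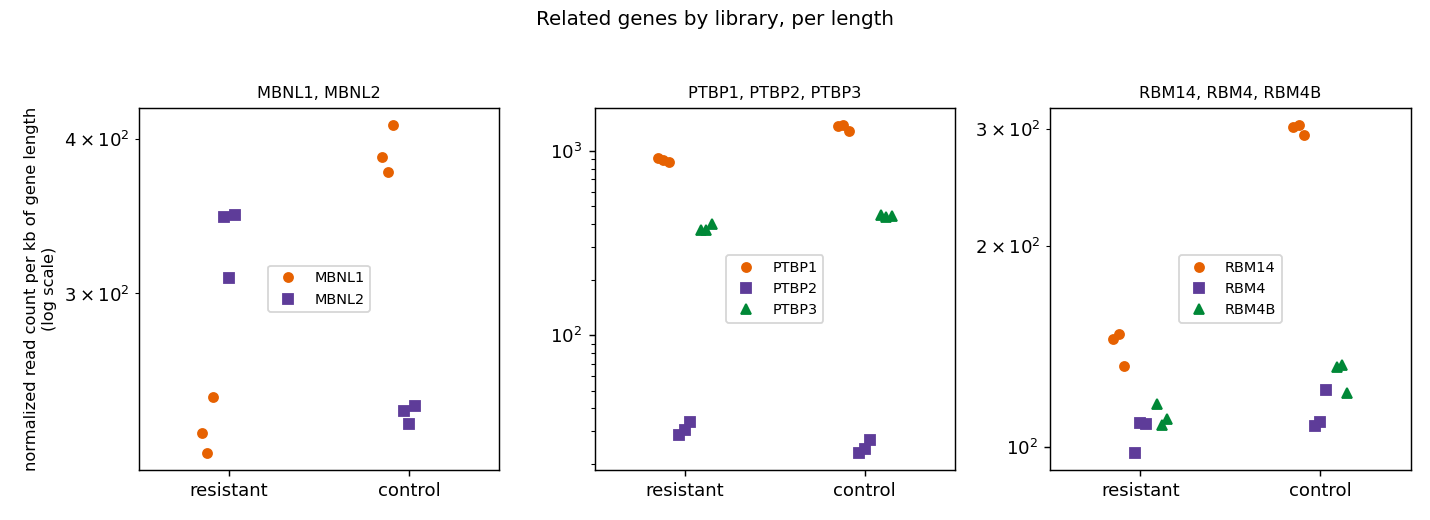
Normalized read count per kb of gene length (log scale) in the 3 resistant (left) and 3 control libraries (right) for MBNL1 and MBNL2, PTBP1 to PTBP3, and RBM14, RBM4 and RBM4B. On this scale, which depends on the gene lengths, MBNL2 lies above MBNL1 in resistant libraries and under it in control libraries. RBM14 comes close to its neighbours in resistant libraries.

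RBM genes form a group by name more than by function. Of 35 tested, 12 were lower, 4 higher and 19 not called, with a median of -0.12, so 34.3% were lower and 11.4% higher, beside 35.6 and 27.9% of well-expressed protein-coding genes in these directions. Under median centring 20 of the 35 were lower. RBM14 (chr11:66616582-66627347), a paraspeckle protein and transcriptional coactivator, had 571, 582 and 521 in the resistant libraries, against 1187, 1198 and 1157 in the control libraries (log2 fold change -1.08, SE 0.08, adjusted p = 3.57e-11). RBM12 had 1178, 1204 and 1213 in the resistant libraries, against 2195, 2193 and 2163 in the control libraries (log2 fold change -0.86, SE 0.06, adjusted p = 1.06e-10). RBM47 (chr4:40423267-40630875), a cofactor of cytidine editing that also regulates splicing in epithelial cells, had 496, 617 and 586 in the resistant libraries, against 962, 1016 and 968 in the control libraries (log2 fold change -0.80, SE 0.08, adjusted p = 3.87e-08). These 3 were clear of control in every library. RBM19, which acts in ribosome biogenesis, stood at -0.71 and RBM45 at -0.71. RBM15 and RBM15B, adaptors of the RNA methylation complex, stood at -0.48 and -0.36, and RBM8A, the exon junction protein Y14, at -0.45. RBM27, RBM42 and RBM22, the last a component of the active spliceosome, stood at -0.49, -0.47 and -0.34. RBM3, a cold-shock protein, averaged 3484 ± 58 in resistant and 4234 ± 263 in control libraries (log2 fold change -0.28, SE 0.06, adjusted p = 0.000876).

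RBM7 (chr11:114400030-114414203), a subunit of the nuclear exosome targeting complex, had 1125, 858 and 1003 in the resistant libraries, against 524, 553 and 658 in the control libraries (log2 fold change 0.78, SE 0.10, adjusted p = 1.55e-06). RBM6 (chr3:49940007-50100045) had 2409, 2555 and 2589 in the resistant libraries, against 1503, 1423 and 1568 in the control libraries (log2 fold change 0.75, SE 0.07, adjusted p = 2.02e-09). Its neighbour RBM5 (chr3:50088908-50119021) had 2001, 2079 and 2175 in the resistant libraries, against 1404, 1364 and 1453 in the control libraries (log2 fold change 0.57, SE 0.07, adjusted p = 1.8e-07). RBM5 and RBM6 are related splicing regulators that lie side by side on chromosome 3 in a region often lost in lung cancer, and both were higher in every resistant library. Their exons overlap on the same strand in the GENCODE 29 annotation, so the counting could split reads between them. RBM44 was low, at 36.7, 43.4 and 46.4 in the resistant libraries, against 14.4, 22.9 and 20.2 in the control libraries, and was called higher (log2 fold change 1.12, SE 0.27, adjusted p = 0.00164); its exons overlap LRRFIP1 on the same strand.

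RBM39, the highest of the RBM genes by mean count and the target of aryl sulfonamide degraders, averaged 4619 ± 103 in resistant and 4422 ± 226 in control libraries (interval -0.06 to 0.19). RBM10, which is recurrently mutated in lung adenocarcinoma, averaged 348 ± 11.6 in resistant and 341 ± 4.88 in control libraries (interval -0.17 to 0.22), and groups overlapped in both. The 19 RBM genes not called had log2 differences from -0.34 to 0.20. RBM20, the cardiac titin regulator, had at most 1 read in any library. RBM4B (-0.20, adjusted p = 0.0566) missed the threshold and was called lower without control library 3 (-0.25, adjusted p = 0.0424) or resistant library 1 (-0.24, adjusted p = 0.0208). Per kb of gene length, RBM14 exceeded RBM4 by a ratio of 1.36 ± 0.130 in resistant and 2.67 ± 0.221 in control libraries (SD, n = 3 each). RBM14 and RBM4 share exons with the readthrough gene RBM14-RBM4, which held 28.6, 28.6 and 28.6 normalized counts in resistant and 32.9, 32.2 and 45.3 in control libraries and was not called.

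Genes that act on or beside the members were counted in 4 further lists, to be read against the 35.6% lower and 27.9% higher of well-expressed protein-coding genes; differences between lists were not tested. In the list of kinases and import factors of SR proteins, 6 of 13 were higher (46.2%) and 3 lower (23.1%), with a median of -0.02. The 13 also included PPP1R8, a phosphatase regulator, which was not called. The higher count was 3 under median centring and 3 under limma without trend. CLK1, a nuclear kinase that releases SR proteins from speckles, had 692, 785 and 800.1 in the resistant libraries, against 493, 504 and 565 in the control libraries (log2 fold change 0.54, SE 0.09, adjusted p = 1.38e-05). CLK3 had 791, 699 and 719 in the resistant libraries, against 507, 533 and 502 in the control libraries (log2 fold change 0.52, SE 0.08, adjusted p = 1.45e-05). Both kinases were higher in every resistant library. SRPK1, the cytoplasmic SR kinase, had 1546, 1851 and 2086 in the resistant libraries, against 2426, 2404 and 2451 in the control libraries (log2 fold change -0.42, SE 0.08, adjusted p = 0.000297). CLK2 (0.25, adjusted p = 0.00563) and CLK4 (0.28, adjusted p = 0.0418) were also called higher, but neither under median centring. CLK4 had overlapping groups and lost its call without control library 2 (0.27, adjusted p = 0.108), control library 3 (0.23, adjusted p = 0.149), resistant library 1 (0.22, adjusted p = 0.0962) or resistant library 3 (0.23, adjusted p = 0.15). For SR-related and exon junction genes, 10 of 23 tested were lower (43.5%) and 4 higher (17.4%), with a median of -0.17; the higher count was 2 without control library 1 or without resistant library 3. CASC3, a core exon junction protein, had 836, 864 and 985 in the resistant libraries, against 1568, 1573 and 1495 in the control libraries (log2 fold change -0.79, SE 0.07, adjusted p = 5.6e-09). LUC7L2, a U1-associated protein, had 1111, 1129.7 and 1283 in the resistant libraries, against 669, 598 and 715 in the control libraries (log2 fold change 0.83, SE 0.08, adjusted p = 1.39e-08). SRRM3, known for neural microexons, was low, with 52, 54.5 and 35.5 in the resistant libraries, against 21.6, 21.8 and 27.9 in the control libraries (log2 fold change 0.95, SE 0.26, adjusted p = 0.00412). Over the 50 neighbouring genes on the chromosome, the median log2 fold change was -0.57 for CASC3, 0.30 for LUC7L2 and 0.36 for SRRM3.

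The third list held core snRNP genes together with other spliceosome genes such as SF1, U2AF2, PRPF19 and DHX15. Its genes were mostly lower, with 28 of 38 lower, none higher and a median of -0.38. At an unadjusted p under 0.05 limma placed 0 higher, and edgeR and DESeq2 each called 0 higher. DDX46, the helicase that prepares U2 for the branch point, had 1037, 1311 and 1312 in the resistant libraries, against 2786, 2695 and 2812 in the control libraries (log2 fold change -1.19, SE 0.08, adjusted p = 2.16e-11). EFTUD2, the U5 GTPase, had 1596, 1697 and 1729 in the resistant libraries, against 3553, 3557 and 3314 in the control libraries (log2 fold change -1.05, SE 0.06, adjusted p = 3.61e-12). PRPF19, a ubiquitin ligase of the activated spliceosome, had 1771, 1837 and 1858 in the resistant libraries, against 3347, 3474 and 3163 in the control libraries (log2 fold change -0.87, SE 0.06, adjusted p = 8.92e-11). All 3 were apart from control in every library, and the neighbours of DDX46 and EFTUD2 on their chromosomes were lower too, with median log2 fold changes of -0.51 and -0.49 over 50 genes. In the list of other splicing regulators, 22 of 36 tested entries were lower and 4 higher, with a median of -0.30. MATR3 was counted as 2 of these entries, under separate gene identifiers, and neither was called. The higher count was 2 without control library 1, control library 2 or resistant library 3. ESRP1, the epithelial splicing regulator, had 1.02, 1.85 and 0 in the resistant libraries, against 71.9, 89.4 and 92.5 in the control libraries, under the floor of 3 reads in each resistant library (adjusted p = 1.1e-10). Its paralogue ESRP2 had 148, 136 and 135 in the resistant libraries, against 327, 341 and 310.3 in the control libraries (log2 fold change -1.22, SE 0.11, adjusted p = 5.58e-09). EPCAM, the epithelial marker given above, was low in the same libraries. Of the keratins given above, KRT7 was not called (-0.06, adjusted p = 0.473). KRT8, KRT18 and KRT19 were called lower, at -0.51, -0.41 and -1.18. NOVA2, a neuronal regulator, had 30.6, 22.2 and 28.6 in the resistant libraries, against 3.08, 10.4 and 3.86 in the control libraries (log2 fold change 2.19, SE 0.41, adjusted p = 0.000118). DDX5, an RNA helicase and splicing cofactor, had 4177, 4946 and 5113 in the resistant libraries, against 14085, 14127 and 14544 in the control libraries (log2 fold change -1.59, SE 0.07, adjusted p = 6.51e-15), and its 50 neighbours had a median of -0.77.

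Ranked per kb of gene length, HNRNPA1 was the highest member in both lines, at 2238 ± 88.3 normalized counts per kb in resistant and 2929 ± 28.8 in control libraries (SD, n = 3 each). HNRNPK was next in both, at 1641 ± 88.4 per kb in resistant and 2426 ± 51.9 per kb in control libraries. Such ranks depend on the deposited gene length, which need not be the length of the transcripts in use. HNRNPU, with a length of 22512 bases, ranked 36 in resistant and 26 in control libraries. By normalized count, HNRNPA2B1 stood above HNRNPA1 in control libraries (means of 17472 and 14919). HNRNPAB ranked 11 in resistant libraries, at 777 ± 91.5 per kb, and 3 in control libraries, at 1951 ± 81.5 per kb. HNRNPM ranked 14 in resistant and 9 in control libraries. SRSF5 and SRSF6, whose levels were not called different, ranked 7 and 8 in resistant and 13 and 14 in control libraries. SF3B1 ranked 12 in resistant and 23 in control libraries. Several members next to each other in this order were closer than their spread, so their ranks are not resolved. Examples in control libraries were HNRNPAB and HNRNPA2B1 (1951 ± 81.5 and 1885 ± 42.1 per kb), and SRSF2 and SRSF3 (837 ± 30.1 and 834 ± 19.4 per kb). In resistant libraries they included RBM3, SRSF5 and SRSF6 (934 ± 15.5, 931 ± 33.9 and 908 ± 66.2 per kb).

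The genes around each member on its chromosome were also examined. For each member, the median log2 fold change of 50 neighbouring tested genes was taken, 25 on each side in order of start position. Fewer were used near a chromosome end, and other members were not left out. SRSF1 stood among neighbours with a median of -0.81, close to its own -0.97. RBM27, RBM22, HNRNPA0, HNRNPAB and SF3B6 also had lower neighbours, at -0.45, -0.41, -0.54, -0.36 and -0.32. HNRNPM, HNRNPF, HNRNPK and HNRNPA1 had neighbours with medians above 0, at 0.21, 0.38, 0.33 and 0.22, while being lower themselves. Of the 49 members called lower, 9 had a neighbour median at or under -0.25, which 12.6% of all genes tested had, and 22 had one above 0. DNA copy number was not measured, and its part was not tested.

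**Figure D4:**
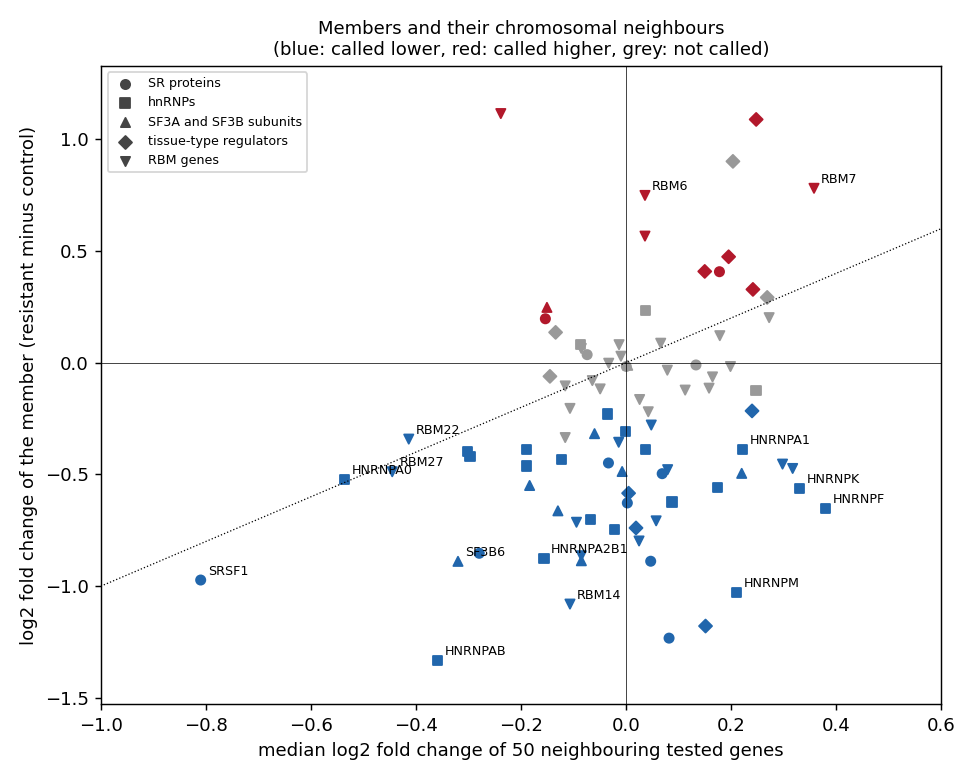
Log2 fold change of each tested member (vertical axis) beside the median log2 fold change of its 50 neighbouring tested genes (horizontal axis), with the dotted line marking equal values. SRSF1 lies near the line at -0.97 and -0.81, whereas HNRNPM, HNRNPF and HNRNPK lie under 0 with neighbours above 0.

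GENCODE 29 lists at least 1 nonsense-mediated decay transcript for all 12 SR proteins, for 14 of 23 hnRNPs (60.9%), for 3 of 9 SF3A and SF3B subunits (33.3%), for 6 of 14 tissue-type regulators (42.9%) and for 15 of 37 RBM genes (40.5%). Over all 95 members the share was 52.6%, against 44.7% of well-expressed protein-coding genes, and the differences were not tested. Retained-intron transcripts are listed for 61.1% of members and 60.5% of those genes. Exons of several leading members overlap those of another gene: HNRNPAB with PHYKPL, HNRNPA2B1 with CBX3, HNRNPU with COX20 and SRSF2 with MFSD11 on the opposite strand, and RBM12 with CPNE1 on the same strand. Whether the counting used strand was not given in the sources used here, so reads of such pairs may not be separable.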

How the data were processed

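RNA was sequenced from 3 resistant and 3 control libraries. The authors deposited, per library, a signal value for each of 30330 genes with a gene length in bases, which served for levels per kb. Per the submitters' processing notes, reads were placed on GRCh38; the aligner and counter are not given in the sources used here. Deposited signal values came out as whole multiples of 1 number in each library for 100% of values, within 0.001 reads, and so hold read counts over a size factor, called normalized counts. Intervals are 95%.

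Values were tested as log2(value + 1) for 24560 genes (3 or more libraries at a minimum of 1) with limma-trend (limma 3.58.1, R 4.3.3, robust). The model held group alone, tests were two-sided, p-values were adjusted by Benjamini-Hochberg over all of these genes, and 0.05 was the threshold. The scale understates changes of low genes. An exact permutation test of 3 against 3 libraries cannot go below p = 0.1, so none was used. Alternatives were quantile normalization, median centring, other filters and pseudocounts, limma without trend, a replicate block, each library left out, and edgeR 4.0.16 and DESeq2 1.42.0 on the recovered reads. Scripts were tested on simulated data.

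Members and lists were chosen with earlier results of these data known. Named in each family were the 4 largest called changes without overlap between groups and a mean of at least 50 in the higher group, the highest member and a fixed set of well-known genes; in each further list, the 3 largest called changes. Other members were named after their values were seen. Overlaps and transcript types came from GENCODE 29. Replicate numbers are shared between groups without a stated meaning.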

Additional observations from a re-analysis of the deposited data

How the results depend on the processing

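Calls for members were 49 lower and 11 higher as reported, 49 and 11 with edgeR, 48 and 11 with DESeq2, 48 and 13 under quantile normalization and 59 and 8 under median centring. Of the 49 lower calls 42 were made under every setting tried, and of the 11 higher calls 7. Counts of higher calls under limma without trend fell to 7 for all members, 1 for SR proteins, 0 for SF3A and SF3B subunits, 2 for tissue-type regulators, 3 for SR kinases and import factors, 2 for SR-related genes and 2 for other regulators, and SR kinases then had 0 lower. Median centring gave 1 higher SR protein, 0 higher SF3 subunits, 20 lower RBM genes, 3 higher SR kinases, 2 higher SR-related genes and 2 higher other regulators. Leaving out 1 library gave 1 to 2 higher SR proteins, 0 to 1 higher hnRNPs, 2 to 4 higher SR-related genes and 2 to 4 higher other regulators. The cause of these shifts was not tested.

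Among members, the sign changed only for those not called. Under median centring RBM17 stood at -0.013, RBM33 at -0.047, RBM39 at -0.070, HNRNPUL2 at -0.053, RBM43 at -0.054, SRSF6 at -0.098 and RBM10 at -0.11. Under quantile normalization RBM25 stood at 0.030, CELF1 at 0.023, RBM23 at 0.029, SRSF5 at 0.079, RBM28 at 0.049, SRSF9 at 0.049 and SF3A2 at 0.060. Leaving out each library in turn gave -0.059 to 0.62 for HNRNPA1L2, -0.025 to 0.15 for RBM43, -0.017 to 0.088 for SRSF6, -0.043 to 0.032 for SRSF5, -0.061 to 0.047 for RBM28, -0.063 to 0.065 for SRSF9, -0.062 to 0.033 for SF3A2 and -0.22 to 0.27 for RBM34.

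Libraries with the same replicate number did not deviate together (correlations of -0.0015, 0.00011 and 0.0067 for the 3 numbers, and 2 of 6 libraries correlated best with their own number), so the numbers were not treated as a pairing. With the replicate number as a block, 49 members were lower and 11 higher. SRSF12 had 5 to 24 reads per library and MBNL3 5 to 17; whether depth bears on their lost calls was not tested.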
